A study of Homo sapiens with 8 samples.

Results

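The MYC, MAX and MXD network was followed through 9 genes in HT29 cells, a colorectal cancer line with an activating BRAF mutation, in which the MEK inhibitor selumetinib blocks the kinase step above ERK. The genes were MYC, MAX, MXD1, MXD3, MXD4, MXI1, MNT, MLX and MGA, taken by symbol from the 38148 genes of the mRNA-seq table, and all 9 had a row. The cells had been fixed in glyoxal, stained for Cyclin B1 (CCNB1, a protein that accumulates in G2 cells) and sorted by flow cytometry into a CCNB1-negative (CCNB1-) and a CCNB1-positive (CCNB1+) fraction. The 8 libraries formed 4 groups of 2, namely untreated CCNB1-, untreated CCNB1+, and both fractions after 24 h in 1 µM selumetinib. All 4 groups were the same cell line, carried no introduced allele and passed through the same fixation and stain. The labels gave RPMI-1640 as the medium, whereas the methods of the study gave McCoy's 5A for this line.

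MYC is a basic helix-loop-helix leucine zipper protein that binds DNA as a dimer with MAX, mostly at the E-box CACGTG, and raises transcription of genes for ribosome production, nucleotide synthesis and metabolism. The MXD proteins (MXD1, MXD3, MXD4 and MXI1, also called MXD2), MNT and MGA bind MAX in place of MYC at the same sites, and the MXD proteins and MNT bring in the SIN3 corepressor with histone deacetylases. MLX is the second dimerisation hub: it pairs with MXD1, MXD4 and MNT, and with the glucose-sensing activators MLXIP (MondoA) and MLXIPL (ChREBP). In colorectal epithelium MYC is known as a target of Wnt and ERK signalling and as a driver of crypt cell proliferation, whereas MXD1 and MXD4 are associated with differentiation.

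Because MYC-MAX, MXD-MAX and MLX dimers all read the E-box, the promoters of the members were searched for it. RefSeq promoter windows on GRCh38.p14, spanning 250 bases before to 50 bases after the start site, were held for 8 of the members, the MYC window not being used here. The motif CACGTG is its own reverse complement, so 1 search covered both strands. It was found in 3 of these 8 genes, MXD4, MNT and MLX, against 8.77% of the 27305 genes with a window, 12.7% of the 9941 tested genes with a window and 7.26% of all 35116 windows. These 3 windows are shown 5′ to 3′ on the strand of the gene, with the E-box in capitals, because MXD4 and MLX had, with MYC, the largest treatment differences in CCNB1- cells and moved in opposite directions, and MNT is the other member with the motif. The MXD4 window lies at chr4:2262060-2262359 on the minus strand with the motif at -238, the MNT window at chr17:2401011-2401310 on the minus strand with the motif at -193, and the MLX window at chr17:42566850-42567149 on the plus strand with the motif at -50, counted from the start site.
MXD4: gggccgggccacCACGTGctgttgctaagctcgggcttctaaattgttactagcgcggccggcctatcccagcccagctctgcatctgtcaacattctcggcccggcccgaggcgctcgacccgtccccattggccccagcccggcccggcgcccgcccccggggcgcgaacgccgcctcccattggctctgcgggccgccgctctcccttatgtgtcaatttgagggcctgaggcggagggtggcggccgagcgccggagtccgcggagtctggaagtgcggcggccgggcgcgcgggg
MNT: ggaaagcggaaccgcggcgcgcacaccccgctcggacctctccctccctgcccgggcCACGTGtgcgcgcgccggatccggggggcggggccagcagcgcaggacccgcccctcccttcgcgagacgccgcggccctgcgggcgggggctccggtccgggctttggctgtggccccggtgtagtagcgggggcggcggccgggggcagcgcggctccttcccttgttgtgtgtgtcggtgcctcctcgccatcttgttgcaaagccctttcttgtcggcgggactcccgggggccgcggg
MLX: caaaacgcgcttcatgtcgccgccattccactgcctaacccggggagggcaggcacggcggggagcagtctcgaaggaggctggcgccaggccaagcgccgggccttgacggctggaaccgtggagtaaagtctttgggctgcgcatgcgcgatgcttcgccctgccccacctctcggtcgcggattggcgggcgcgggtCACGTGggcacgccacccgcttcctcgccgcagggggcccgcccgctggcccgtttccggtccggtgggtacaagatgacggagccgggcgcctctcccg
No CACGTG was present in the windows held for MAX, MXD1, MXD3, MXI1 and MGA, which says only that these letters are not in these 300 bases. A motif match is a property of the sequence, and binding was not measured.

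The selumetinib-treated libraries held 12696860 to 19976635 reads on genes and the untreated ones 19114877 to 23916160. The sample titles and the sample descriptions name opposite treatments and opposite fractions for all 8 libraries, and groups here follow the descriptions, which are also the column names of the table. Under the titles every treatment difference would change its sign, with the fractions exchanged. The sorting marker CCNB1 had log2 values of 11.66 and 12.01 in the untreated CCNB1- libraries, 13.79 and 14.05 in the untreated CCNB1+ ones, 7.92 and 7.22 in the treated CCNB1- ones, and 12.76 and 12.53 in the treated CCNB1+ ones, so it was higher in the fraction described as positive under both conditions. Of 12 genes known as transcriptional output of ERK, 10 were lower in selumetinib in each fraction, among them ETV4 by 3.10 and 2.34 on the log2 scale. EGR1 and SPRED2 were higher in both. Of all tested genes, 35.8% were lower and 38.2% higher in CCNB1- cells at a limma adjusted p under 0.05. In CCNB1+ cells these shares were 27.3% and 38.0%. All 8 colorectal epithelial markers were detected, with a summed level of 5310 to 11883 RPM, the depth-scaled read count. The 4 markers of leukocytes, fibroblasts and endothelium summed to 1.10 to 5.86 RPM, COL1A2 had 0 or 1 read in each library, and COL1A1 was the only one of them above the filter and was higher in selumetinib in both fractions. Nothing in the labels says that the libraries of a group came from separate cultures, so p-values measure the spread between these libraries, which may be technical.

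Values below are log2 of reads scaled to the largest library, as deposited. Tests were made with limma over the 14219 genes whose mean reached 1 RPM, all 9 members included, with Benjamini-Hochberg adjustment over all of them, and a gene is said to have risen or fallen at an adjusted p under 0.05. With 2 libraries a group, an exact permutation test of a single gene could not go below p = 0.333. In CCNB1- cells, 3 members rose and 4 fell in selumetinib, where 38.2% of all tested genes rose and 35.8% fell. In CCNB1+ cells, 2 members rose and 3 fell, where 38.0% of all tested genes rose and 27.3% fell. The count of members that moved was thus close to that of all genes, and the members differed in the direction and size of the change. MYC, MLX and MAX fell in both fractions and MXD4 and MXD3 rose in both. The median difference of all tested genes was 0.05 in CCNB1- and 0.17 in CCNB1+ cells, against -0.38 and -0.13 for the members, and relative to that shift the CCNB1+ differences were -2.02 for MYC, -1.39 for MLX, -0.73 for MAX, 1.11 for MXD3 and 1.82 for MXD4.

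**Figure D1:**
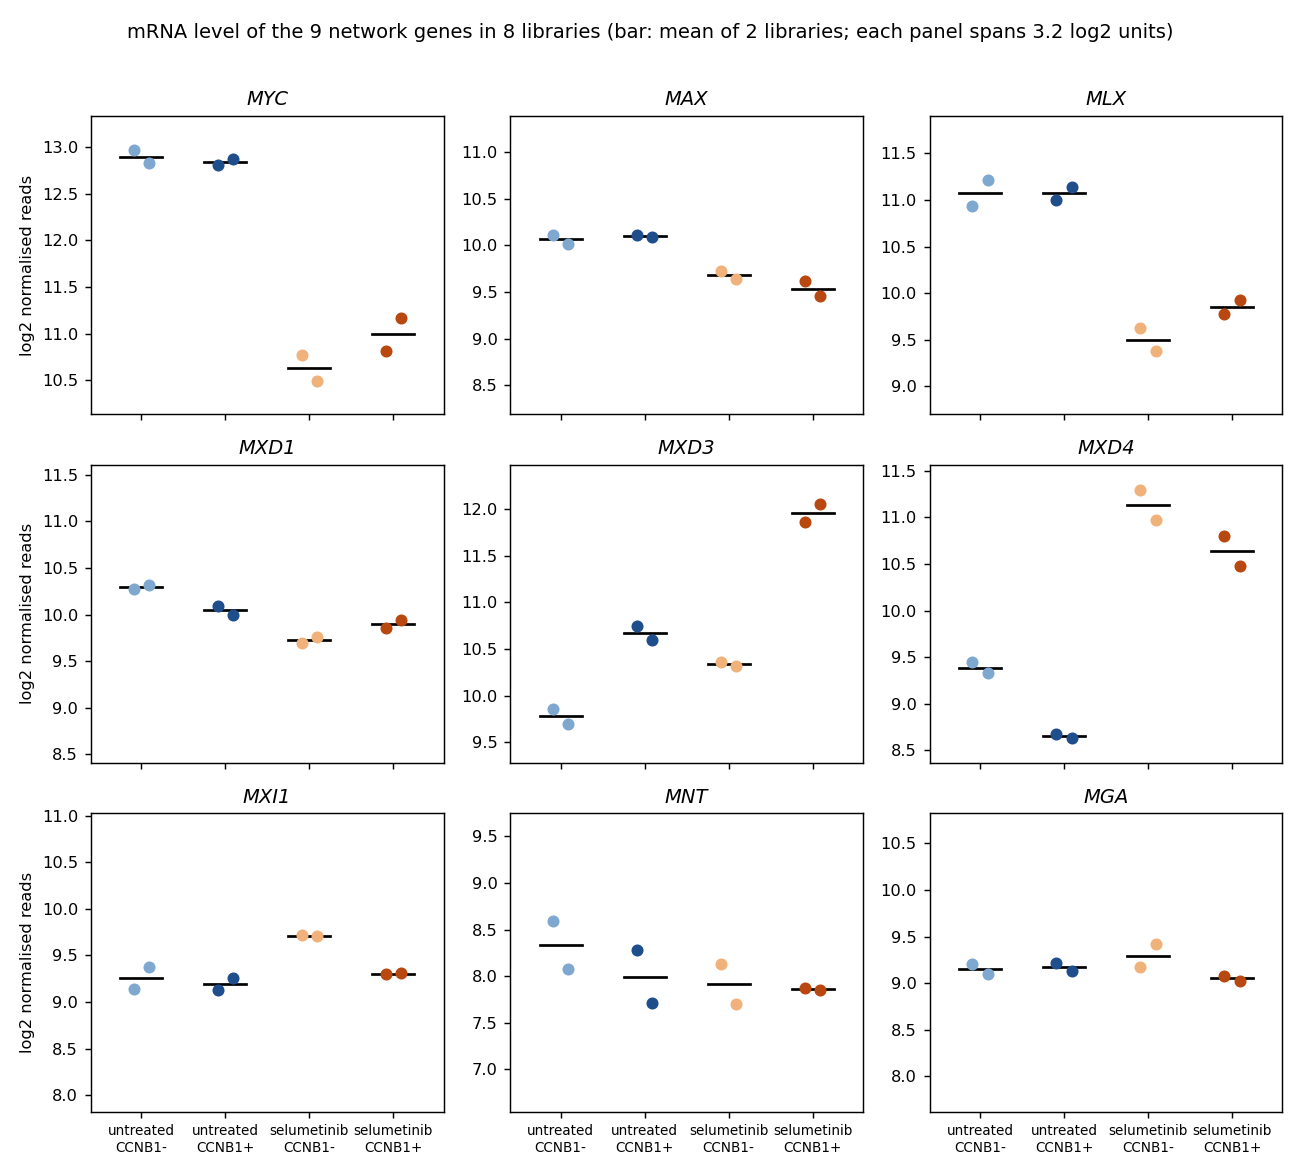
Log2 values of the 9 members in each of the 8 libraries (points) with group means (bars), by treatment and CCNB1 fraction; each panel spans the same range of log2 units. MYC and MLX sit lower and MXD4 higher in all 4 selumetinib libraries than in the 4 untreated ones, and MXD3 is highest in the treated CCNB1+ libraries, at 11.86 and 12.06.

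MYC, the activator of the network, had log2 values of 12.97 and 12.83 in untreated CCNB1- cells, 12.81 and 12.87 in untreated CCNB1+ cells, 10.77 and 10.50 in treated CCNB1- cells, and 10.81 and 11.17 in treated CCNB1+ cells, from 852 to 7399 reads a library. The 4 treated libraries all lay below the 4 untreated ones, with no overlap. In CCNB1- cells MYC was 4.81-fold lower in selumetinib, a log2 difference of -2.27 ± 0.16 (SE, n = 2 per group; limma adjusted p = 4.22e-08). In CCNB1+ cells it was 3.60-fold lower, a difference of -1.85 ± 0.16 (limma adjusted p = 8.59e-07). Among all tested genes, 3.60% had a difference as low or lower in CCNB1- cells and 1.15% in CCNB1+ cells. Between the fractions MYC did not pass the test in untreated cells, at -0.06 with a 95% interval of -0.41 to 0.29, or in treated cells, at 0.36 with an interval of 0.01 to 0.71 (limma adjusted p = 0.125), though it passed in treated cells when libraries were blocked by pair of fractions (limma adjusted p = 0.0187). CASC11, a non-coding gene on the opposite strand that overlaps MYC, had 17 to 42 reads a library and did not pass the test for either treatment difference.

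MAX, the common dimerisation partner, changed little beside MYC. Its log2 values were 10.12 and 10.01 in untreated CCNB1-, 10.11 and 10.09 in untreated CCNB1+, 9.72 and 9.64 in treated CCNB1-, and 9.62 and 9.46 in treated CCNB1+ libraries. Every treated library lay below every untreated one. MAX fell by 0.38 ± 0.14 on the log2 scale in CCNB1- cells (limma adjusted p = 0.0278) and by 0.57 ± 0.14 in CCNB1+ cells (limma adjusted p = 0.00363). The call in CCNB1- cells was lost under quantile normalization (-0.29, adjusted p = 0.0789), with limma-voom (-0.24, adjusted p = 0.153) and when the 2 compared groups were fitted alone (adjusted p = 0.0836). It was also lost without either untreated CCNB1- library (adjusted p = 0.138 without library 1 and 0.0603 without library 2) or without treated CCNB1- library 2 (adjusted p = 0.0741), and its size shrank to -0.07 under scaling to nuclear-encoded reads with MALAT1 left out, which also took the CCNB1+ call to an adjusted p of 0.0756. MAX lies at chr14:65006174-65102695 on the minus strand, where FNTB and CHURC1-FNTB overlap it on the opposite strand, and neither of these passed the test for a treatment difference.

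The MXD family split, with MXD4 showing the largest rise. MXD4 (chr4:2247432-2262109, minus strand) had log2 values of 9.45 and 9.33 in untreated CCNB1- libraries, 8.68 and 8.63 in untreated CCNB1+ ones, 11.30 and 10.97 in treated CCNB1- ones, and 10.80 and 10.48 in treated CCNB1+ ones. All 4 treated libraries were above all 4 untreated ones. The rise was 3.35-fold in CCNB1- cells, a log2 difference of 1.74 ± 0.17 (limma adjusted p = 4.95e-07), and 3.95-fold in CCNB1+ cells, a difference of 1.98 ± 0.17 (limma adjusted p = 5.96e-07). As large a difference or larger was found for 14.1% of tested genes in CCNB1- and 8.75% in CCNB1+ cells. MXD4 was also lower in the CCNB1+ than in the CCNB1- fraction, by 0.73 ± 0.17 on the log2 scale in untreated cells (limma adjusted p = 0.0265) and by 0.49 ± 0.17 in treated cells (limma adjusted p = 0.0475). These fraction calls rested on all libraries: the untreated one was lost without any 1 of the 4 untreated libraries (adjusted p = 0.0777 to 0.175), and the treated one was lost without any 1 of the 8 libraries other than treated CCNB1- library 2 (adjusted p = 0.0542 to 0.301). Without a filter on low values both were lost (adjusted p = 0.0693 and 0.0881). The untreated one was also lost under quantile normalization (adjusted p = 0.104) and the treated one when its 2 groups were fitted alone (adjusted p = 0.0721). Both calls held when libraries were blocked by pair of fractions. Over all alternatives the lowest limma adjusted p was 6.39e-05 for the untreated and 0.000922 for the treated fraction difference.

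MXD3, the family member known to be expressed in proliferating rather than differentiating cells, rose with treatment and was higher in CCNB1+ cells. Its log2 values were 9.86 and 9.70 in untreated CCNB1-, 10.75 and 10.60 in untreated CCNB1+, 10.36 and 10.32 in treated CCNB1-, and 11.86 and 12.06 in treated CCNB1+ libraries, from 659 to 3303 reads. No 2 of the 4 groups overlapped. The treatment difference was 0.56 ± 0.14 in CCNB1- cells, 1.48-fold (limma adjusted p = 0.00294), and 1.28 ± 0.14 in CCNB1+ cells, 2.43-fold (limma adjusted p = 5.91e-06). The CCNB1+ fraction was higher by 0.90 ± 0.14 in untreated cells (limma adjusted p = 0.00226) and by 1.62 ± 0.14 in treated cells, 3.07-fold (limma adjusted p = 1.87e-06). Genes of G2 and mitosis moved with the fraction as well: 8 such genes, among them CCNB1, CDK1 and PLK1, summed to 909 to 1035 RPM in untreated CCNB1-, 3970 to 4392 RPM in untreated CCNB1+, 104 to 140 RPM in treated CCNB1- and 3074 to 3195 RPM in treated CCNB1+ libraries, all 8 being higher in the positive fraction under both conditions. Within CCNB1- cells treatment lowered that sum while MXD3 rose. The part of cell cycle position in the MXD3 differences was not tested, and in sorted pools a smaller share of cells of one kind and less RNA per cell cannot be told apart.

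MXD3 (chr5:177301461-177312757, minus strand) shares bases with PRELID1 on the opposite strand and RAB24 on its own. PRELID1, a mitochondrial lipid transfer protein gene, fell by 2.20 on the log2 scale in CCNB1- and by 1.35 in CCNB1+ cells, where MXD3 rose. Between the treated fractions PRELID1 was higher in CCNB1+ cells by 0.93 (limma adjusted p = 0.00227), the direction of MXD3. In untreated cells its fraction difference was 0.08 and did not pass the test. Its treatment response differed between the fractions by 0.85 (CCNB1+ minus CCNB1-), which did not pass the test (limma adjusted p = 0.066). RAB24 rose by 0.53 in CCNB1- cells and had a difference of 0.26 in CCNB1+ cells that did not pass the test. The library kit was directional, but the strand setting of the count was not given in the sources used here, so reads of these genes may not be fully told apart.

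MXD1 and MXI1 differed less and in opposite directions. MXD1 (chr2:69897688-69942945, plus strand) had log2 values of 10.27 and 10.32 in untreated CCNB1-, 10.10 and 9.99 in untreated CCNB1+, 9.70 and 9.76 in treated CCNB1-, and 9.86 and 9.94 in treated CCNB1+ libraries. It fell by 0.56 ± 0.14 on the log2 scale in CCNB1- cells (limma adjusted p = 0.00239), and in CCNB1+ cells its difference was -0.15 with an interval of -0.45 to 0.16. Under scaling to nuclear-encoded reads with MALAT1 left out, the CCNB1- call was lost (-0.25, adjusted p = 0.129) and the CCNB1+ difference took the other sign (0.10). SNRNP27, a splicing factor gene that overlaps MXD1 on the same strand, fell by 0.96 in CCNB1- and by 0.56 in CCNB1+ cells. MXI1 (chr10:110207605-110287365, plus strand) had log2 values of 9.14 and 9.37, 9.13 and 9.26, 9.71 and 9.70, and 9.30 and 9.31 in the same order of groups. It rose by 0.45 ± 0.15 in CCNB1- cells (limma adjusted p = 0.0170), a call lost without untreated CCNB1- library 1 (adjusted p = 0.145), and its difference in CCNB1+ cells was 0.11 with an interval of -0.22 to 0.44, which took the other sign under quantile normalization (-0.04) and median-of-ratios scaling (-0.06) and passed the test under scaling to nuclear-encoded reads with MALAT1 left out (0.36, adjusted p = 0.0484).

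MNT, the broadly expressed antagonist of MYC, and MGA, the largest protein of the network and the scaffold of a variant Polycomb complex (PRC1.6), did not pass the test in any comparison. MNT (chr17:2384073-2401104, minus strand) was the least abundant by reads, with 123 to 355 reads a library and log2 values from 7.70 to 8.59. Its 2 untreated CCNB1- libraries, at 8.59 and 8.07, lay farther apart than any pair of group means. The MNT treatment differences were -0.42 with an interval of -0.94 to 0.11 in CCNB1- cells and -0.13 with an interval of -0.65 to 0.40 in CCNB1+ cells, so changes of the size seen for MYC lie outside them and changes of the size seen for MAX do not. MGA (chr15:41621224-41773081, plus strand) ranged from 9.03 to 9.42, with treatment differences of 0.14 (interval -0.20 to 0.48) and -0.12 (interval -0.47 to 0.22). Its 2 treated CCNB1+ libraries, at 9.08 and 9.03, lay just below all the others, and the remaining groups overlapped. Under quantile normalization MNT passed the test in both fractions, at -0.72 and -0.67 (limma adjusted p = 0.0110 and 0.0218), and under scaling to nuclear-encoded reads with MALAT1 left out MGA passed in CCNB1- cells at 0.45 (limma adjusted p = 0.0232), while the CCNB1+ differences of MNT (0.12) and MGA (0.13) took the other sign.

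MLX, the hub of the second arm, followed MYC. MLX (chr17:42567068-42573239, plus strand) had log2 values of 10.93 and 11.21 in untreated CCNB1-, 11.00 and 11.14 in untreated CCNB1+, 9.62 and 9.38 in treated CCNB1-, and 9.78 and 9.92 in treated CCNB1+ libraries. The treated and untreated libraries did not overlap. MLX was 2.97-fold lower in selumetinib in CCNB1- cells, a log2 difference of -1.57 ± 0.16 (limma adjusted p = 7.89e-07), and 2.33-fold lower in CCNB1+ cells, a difference of -1.22 ± 0.16 (limma adjusted p = 1.70e-05). Its fraction differences were 0.00 in untreated cells, with an interval of -0.34 to 0.33, and 0.35 in treated cells, with an interval of 0.01 to 0.69 (limma adjusted p = 0.121). PSMC3IP, a meiotic recombination gene that overlaps MLX on the opposite strand by 930 bases, also fell: it fell by 3.12 in CCNB1- and by 0.88 in CCNB1+ cells, with 64 to 938 reads in the libraries against 394 to 2065 for MLX. In CCNB1+ cells PSMC3IP was lower by 0.73 when untreated (limma adjusted p = 0.0345) and higher by 1.51 when treated (limma adjusted p = 2.31e-05). Its treatment response differed between the fractions by 2.24 (CCNB1+ minus CCNB1-; limma adjusted p = 3.43e-05).

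**Figure D2:**
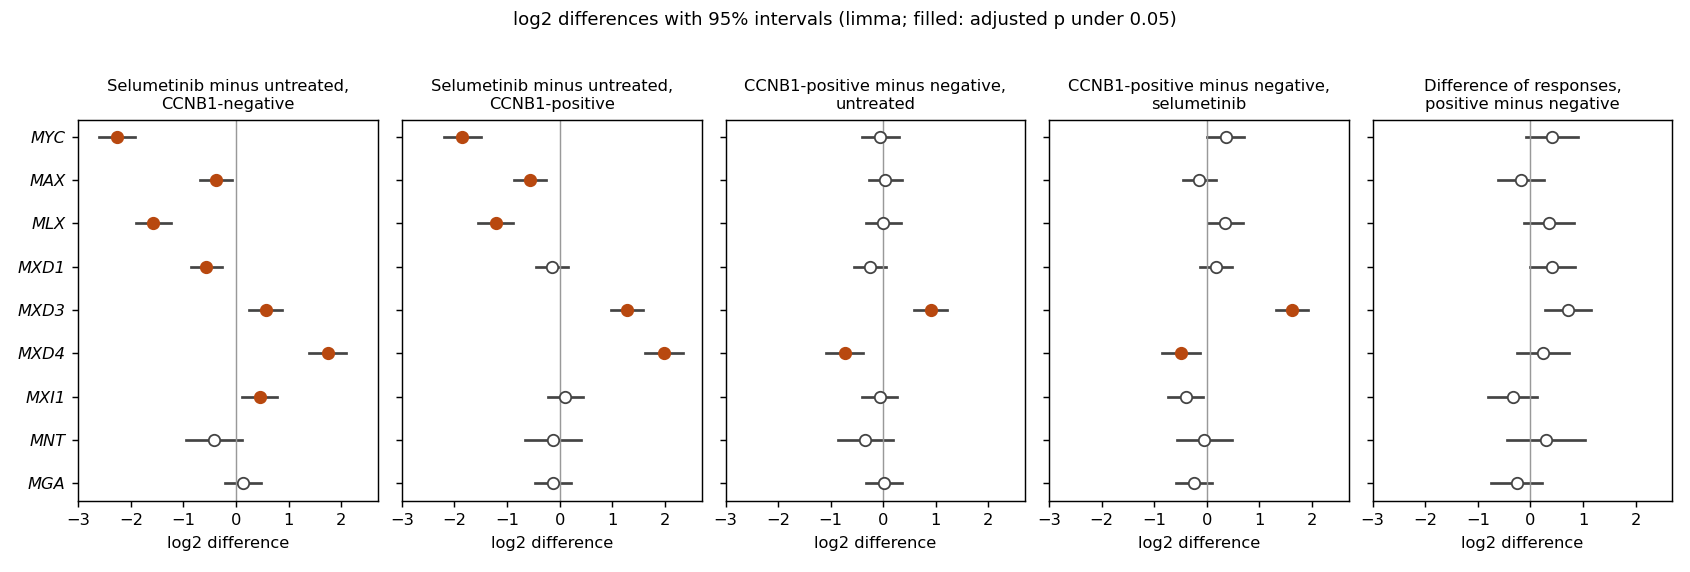
Log2 differences of the 9 members (points) with 95% intervals (lines) in the 5 comparisons; filled points passed limma at an adjusted p under 0.05. MYC and MLX lie farthest to the left and MXD4 farthest to the right in both treatment comparisons, and MXD3 lies farthest to the right between the fractions.

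Between the fractions, 1 member was higher and 1 lower in CCNB1+ cells, MXD3 and MXD4, both in untreated cells, where 1.36% of all tested genes were higher and 1.51% lower, and in treated cells, where 13.8% were higher and 7.87% lower. MXI1 did not pass the test between the treated fractions, at -0.40 with an interval of -0.74 to -0.07 (limma adjusted p = 0.0752), and passed under quantile normalization (-0.56, adjusted p = 0.0181), with limma-voom (-0.45, adjusted p = 0.0459) and under scaling to nuclear-encoded reads with MALAT1 left out (-0.48, adjusted p = 0.0399). Blocking by pair of fractions added MXI1 (limma adjusted p = 0.00505), MYC (0.0187) and MLX, with a difference of 0.35 (0.0128), to the calls between treated fractions. The difference between the treatment responses of the fractions (CCNB1+ minus CCNB1-) passed the test for 5.33% of all tested genes and for 0 members with limma, 1 of them having an unadjusted p under 0.05, and for 0 members with limma-voom. That member was MXD3, whose response was larger in CCNB1+ cells by 0.72 ± 0.20 on the log2 scale (interval 0.28 to 1.16; limma adjusted p = 0.0599). The adjusted p of MXD3 ran from 0.000976 to 0.215 over the alternatives and was 0.0422 without treated CCNB1- library 1. For MYC, MLX and MXD4 the differences of response were 0.42 (interval -0.08 to 0.91), 0.35 (interval -0.12 to 0.83) and 0.24 (interval -0.26 to 0.74). The intervals for MYC, MLX and MXD4 all included 0.

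To compare levels between genes, RPM values were divided by exon length (RPM per kb of exon). Here RPM was scaled to the reads on genes of each library, which is not exactly the scaling of the deposited log2 values. Treated libraries stand slightly higher on the per-length scale, so ratios of treated to untreated levels differ from the fold changes tested above. Exon length was the union of all annotated exons of a gene, for MYC 6109 bases over 15 transcripts. It is not the length of the transcript expressed, so the order of genes and the size of ratios between genes depend on it. On this scale MYC was the highest member in untreated cells, at 52.3 ± 4.1 (SD, n = 2) in CCNB1- and 49.96 ± 1.17 in CCNB1+ cells, followed by MLX at 21.3 ± 2.7 and 21.1 ± 1.3. In untreated CCNB1- cells MXD1 (8.26), MXD3 (7.74) and MAX (7.16) came next with overlapping libraries between neighbours, then MXI1 (4.35) and MXD4 (4.08), which overlapped too, and MNT (1.57) and MGA (1.19). In untreated CCNB1+ cells MXD3 stood just behind MLX at 14.4 ± 1.2, and MXD4 was at 2.44 ± 0.07. After selumetinib the order changed. In treated CCNB1- cells MXD4 (15.1 ± 2.2) was first, and MXD3 (12.6 ± 0.1) and MYC (12.0 ± 1.4) overlapped behind it, ahead of MLX (7.86 ± 0.81). In treated CCNB1+ cells MXD3 was first at 37.6 ± 3.9, followed by MYC at 15.0 ± 2.8, with MXD4 (10.4 ± 1.6) and MLX (9.74 ± 0.76) overlapping. MGA and MNT were the lowest 2 members in all 4 groups.

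The balance between MYC and its competitors for MAX was described by the sum of the per-length levels of MXD1, MXD3, MXD4, MXI1, MNT and MGA. This sum was 27.8 and 26.6 in untreated CCNB1- libraries, 31.6 and 29.0 in untreated CCNB1+ ones, 44.5 and 41.7 in treated CCNB1- ones, and 60.1 and 63.9 in treated CCNB1+ ones. MYC divided by the sum was 1.55 to 1.98 in untreated and 0.218 to 0.292 in treated libraries. By this per-length measure MYC exceeded the sum of the 6 genes in each untreated library and in no treated one. Whether MYC exceeds the sum depends on the exon lengths used, which are not those of the expressed transcripts. MYC divided by MAX was 6.64 to 7.40 in untreated and 1.85 to 3.36 in treated libraries. The make-up of the sum differed between the fractions. MXD4 supplied 37.4% and 32.5% of it in treated CCNB1- and 19.2% and 14.6% in treated CCNB1+ libraries, whereas MXD3 supplied 28.4% and 30.0% in the former and 58.0% and 63.3% in the latter. These are mRNA levels, and protein was not measured in these libraries.

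**Figure D3:**
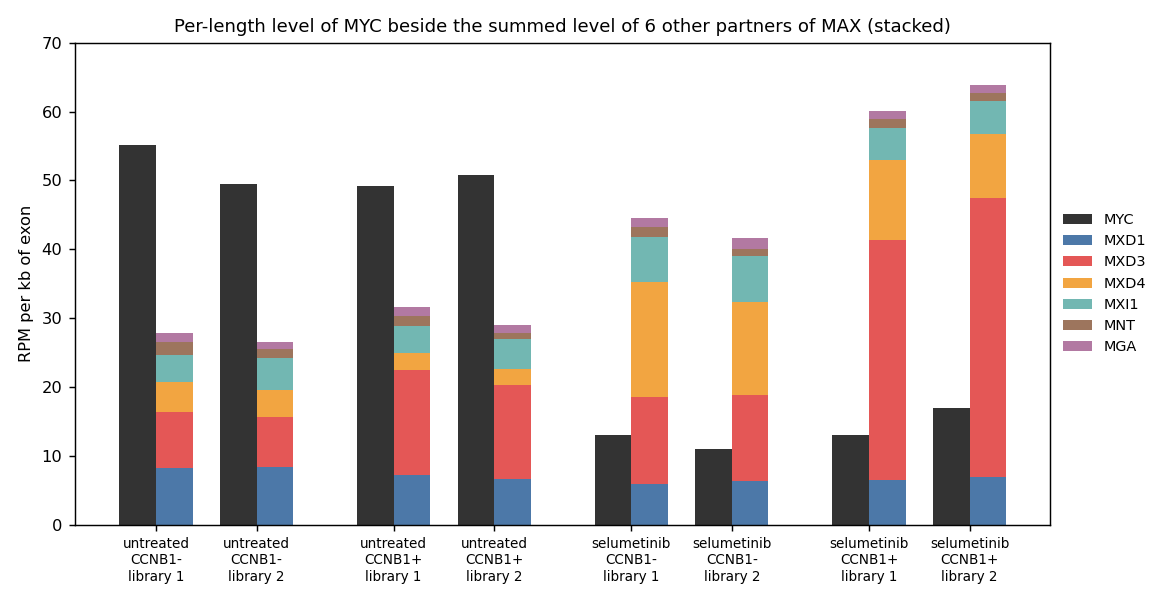
Per-length level of MYC (dark bars) beside the stacked levels of 6 other MAX partners in each library, in RPM per kb of exon. MYC stands at 49.1 to 55.2 in untreated and 11.0 to 17.0 in treated libraries, and the stack rises from 26.6 to 31.6 in untreated to 41.7 to 63.9 in treated libraries, mostly through MXD4 in CCNB1- and MXD3 in CCNB1+ cells.

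Of the other MYC and MLX family genes, MYCL and MLXIP rose, while MYCN and MLXIPL had too few reads to be tested. MYCL, the paralogue of MYC known from lung cancer, had log2 values of 6.54 and 6.54, 6.36 and 6.73, 9.26 and 8.45, and 8.66 and 8.004 in the order untreated CCNB1-, untreated CCNB1+, treated CCNB1- and treated CCNB1+. It rose 4.97-fold in CCNB1- and 3.45-fold in CCNB1+ cells (limma adjusted p = 6.76e-06 and 0.000119), yet its per-length level stayed low, at 4.45 ± 1.68 and 2.97 ± 0.91 in treated cells beside 12.0 and 15.0 for MYC. MYCN, the neural paralogue, had 0 to 6 reads a library and was not tested. MLXIP, the glucose-sensing partner of MLX, had log2 values of 11.73 and 11.29, 11.56 and 11.10, 13.55 and 13.52, and 13.07 and 13.05 in the same order. It rose 4.09-fold in CCNB1- and 3.32-fold in CCNB1+ cells (limma adjusted p = 3.31e-07 and 3.74e-06). The per-length ratio of MLXIP to MLX was thereby 0.297 to 0.531 in untreated and 2.68 to 5.40 in treated libraries. MLXIPL had 4 to 15 reads in untreated and 11 to 51 in treated libraries, below the filter. Of the 4 listed targets of MLX dimers, TXNIP, an inhibitor of glucose uptake, rose 2.19-fold and 2.37-fold (limma adjusted p = 2.17e-05 and 1.79e-05), KLF10, a zinc finger repressor, fell by 0.59 and by 0.42 on the log2 scale (limma adjusted p = 0.00655 and 0.0448), ARRDC4 had differences of 0.27 and 0.02 that did not pass the test, and PKLR had 0 to 2 reads a library.

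Genes known to be activated by MYC fell as a group. All 59 tested genes of a 60-gene list of ribosome biogenesis, nucleolar, nucleotide and metabolic genes fell in selumetinib in CCNB1- and in CCNB1+ cells, against 35.8% and 27.3% of all tested genes. Their median difference was -1.99 in CCNB1- cells, where that of all genes was 0.05, and -1.602 in CCNB1+ cells, where that of all genes was 0.17. The summed level of the list was 14615 to 16746 RPM in untreated, 3379 to 3638 RPM in treated CCNB1- and 4644 to 5511 RPM in treated CCNB1+ libraries. HSPD1, the mitochondrial chaperonin, had log2 values of 14.53 and 14.89 in untreated and 11.30 and 11.03 in treated CCNB1- cells, and it fell by 3.54 in CCNB1- and by 2.49 in CCNB1+ cells (limma adjusted p = 3.04e-09 and 2.36e-07). Its co-chaperonin HSPE1 fell by 3.23 in CCNB1- cells, the hexokinase HK2 fell by 3.17 there and by 3.02 in CCNB1+ cells, and RRP9, a component of the U3 small nucleolar particle, fell by 2.43 in CCNB1+ cells. RefSeq promoter windows were held for 51 of the 60 genes, and 26 of these (51.0%) contained CACGTG. The share was 8.77% of all genes and 12.7% of tested genes with a window. The part of MYC in the fall of these genes was not tested.

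In the treated cells 30 of these 59 genes were higher in the CCNB1+ fraction and 0 lower, against 13.8% and 7.87% of all tested genes, with a median difference of 0.46, and in untreated cells 0 of 59 passed limma in either direction, 4 having an unadjusted p under 0.05. HSPE1, HSPD1 and TCOF1, a nucleolar factor for ribosomal RNA transcription, had the largest differences, at 1.14, 1.11 and 1.06 on the log2 scale (limma adjusted p = 0.000587, 0.000760 and 0.00110). The number higher was 10 without treated CCNB1- library 2, 8 without treated CCNB1+ library 2, 16 both without a filter on low values and under scaling to nuclear-encoded reads with MALAT1 left out, and 19 when the fit held the 2 treated groups alone. The difference of the responses passed the test for 5 of the 59, against 5.33% of all tested genes, all with the smaller fall in CCNB1+ cells, among them HSPE1 (1.24), TMEM97 (1.14), a sterol-regulated membrane protein, and DCTPP1 (1.12), a nucleotide pyrophosphatase. That number was 1 without treated CCNB1+ library 2 and without a filter on low values, 2 without treated CCNB1- library 2, without untreated CCNB1- library 2, without untreated CCNB1+ library 1 and under median-of-ratios scaling, 9 without treated CCNB1- library 1, and 20 with the block by pair of fractions.

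Genes known to be repressed by MYC moved both ways in CCNB1- cells, while those called in CCNB1+ cells all rose. Of 10 listed genes, 4 rose and 2 fell in CCNB1- cells, with a median difference of 0.33, and 5 rose and 0 fell in CCNB1+ cells, with a median of 0.79. Of all tested genes, 38.2% rose and 35.8% fell in CCNB1- cells and 38.0% rose and 27.3% fell in CCNB1+ cells. For a list of 10 genes, the number that rose was near that share in both fractions. Whether 0 of 10 falling in CCNB1+ cells differs from the share of all genes was not tested. NDRG1, a stress and differentiation gene, had log2 values of 7.96 and 7.81 in untreated and 12.97 and 12.32 in treated CCNB1- libraries, and rose 27.2-fold there and 22.6-fold in CCNB1+ cells (limma adjusted p = 2.58e-09 and 2.78e-08). The CDK inhibitor CDKN1C rose 6.62-fold and 12.8-fold. CDKN2B, another CDK inhibitor gene, rose 1.96-fold in CCNB1- cells, and CDKN1A rose 3.15-fold in CCNB1+ cells. THBS1, an angiogenesis inhibitor, fell by 1.99 and CEBPA, a differentiation factor, fell by 0.52 in CCNB1- cells. The split was 3 higher and 4 lower in CCNB1- cells without treated CCNB1- library 1, with a median of -0.12. Promoter windows were held for 6 of the 10, and 0 contained CACGTG, against 12.7% of tested genes with a window.

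**Figure D4:**
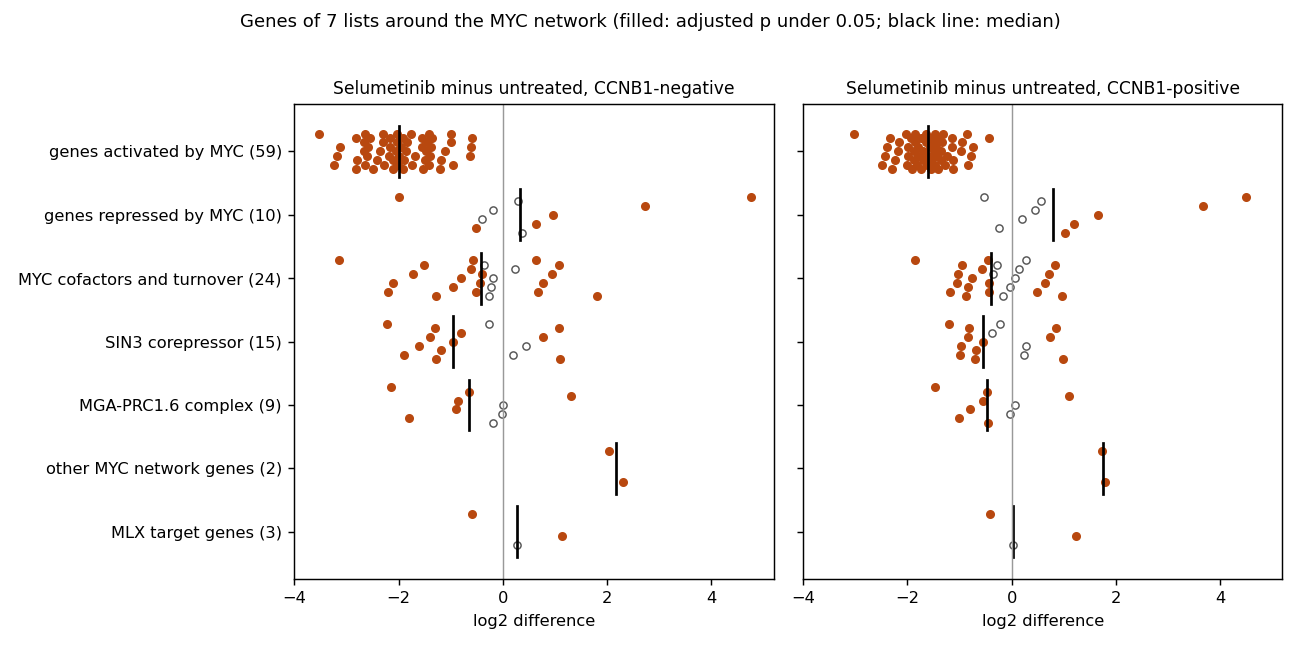
Log2 differences for selumetinib against untreated cells in each fraction for the tested genes of 7 lists (number tested in brackets; filled points passed limma at an adjusted p under 0.05; black lines are medians). All 59 genes activated by MYC lie left of zero in both fractions, around medians of -1.99 and -1.602, while the repressed genes and the complexes spread to both sides.

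In the protein complexes around the network, some genes fell and others rose. Of 24 genes for MYC cofactors and turnover, 13 fell and 6 rose in CCNB1- cells and 12 fell and 5 rose in CCNB1+ cells, with medians of -0.42 and -0.39, against 35.8% falling and 38.2% rising among all tested genes in CCNB1- cells and 27.3% and 38.0% in CCNB1+ cells. Under scaling to nuclear-encoded reads with MALAT1 left out, 8 of the 24 fell in each fraction, and without untreated CCNB1+ library 2 the number that rose in CCNB1+ cells was 3. RUVBL1, a helicase subunit of the TIP60 complex that MYC recruits, fell by 2.20 in CCNB1- and by 1.86 in CCNB1+ cells, and RUVBL2 fell by 1.18 and ACTL6A by 1.06 in CCNB1+ cells. The ubiquitin ligase genes of the list moved both ways. FBXW7, which marks MYC for degradation, rose 1.93-fold and 1.79-fold and the F-box gene BTRC rose 3.50-fold and 1.96-fold, whereas SKP2, another F-box gene that acts on MYC, fell by 2.11 and by 0.88, and HUWE1, named after its values were seen, fell by 0.58 and by 0.56. GSK3B, the kinase that primes MYC for FBXW7, rose 2.12-fold in CCNB1- cells. AURKA, which stabilises MYC proteins and is also one of the 8 genes of G2 and mitosis, fell by 3.14 in CCNB1- cells and was 23.3-fold higher in the positive than in the negative treated fraction.

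Of 15 genes of the SIN3 corepressor, through which MXD proteins and MNT repress, 9 fell and 3 rose in CCNB1- cells and 8 fell and 3 rose in CCNB1+ cells, with medians of -0.95 and -0.54, beside the same shares of all genes (35.8% falling and 38.2% rising in CCNB1- cells, 27.3% and 38.0% in CCNB1+ cells). With limma-voom and under scaling to nuclear-encoded reads with MALAT1 left out, 5 of the 15 rose in CCNB1- cells, and under that scaling 5 also rose in CCNB1+ cells. SAP30 fell by 2.22 and by 1.21, RBBP7 fell by 1.90 and ING2 by 1.601 in CCNB1- cells, and HDAC2 and BRMS1 fell by 0.99 and by 0.96 in CCNB1+ cells. ARID4A, ARID4B and SAP130 rose in both fractions, ARID4A 2.15-fold and 1.99-fold. Of 9 partners of MGA in PRC1.6, 5 fell and 1 rose in CCNB1- cells and 6 fell and 1 rose in CCNB1+ cells, with medians of -0.65 and -0.46. The 6 that fell in CCNB1+ cells were 2 without treated CCNB1+ library 2 and under scaling to nuclear-encoded reads with MALAT1 left out, and 3 without treated CCNB1+ library 1, without untreated CCNB1+ library 2 and with limma-voom. TFDP1, the E2F dimerisation partner, fell by 2.14 and by 1.48, the heterochromatin protein CBX3 fell by 1.81 and by 1.01, and YAF2 rose 2.49-fold and 2.15-fold.

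Between the untreated fractions AURKA and SAP30 were the called genes of these 3 lists, both higher in CCNB1+ cells, where 1.36% of all tested genes were higher. In treated cells 6 of the 24 cofactor and turnover genes, 3 of the 15 SIN3 genes and 2 of the 9 PRC1.6 genes were higher in CCNB1+ cells, and 1, 0 and 2 were lower, against 13.8% higher and 7.87% lower of all tested genes. The number of cofactor and turnover genes that were higher was 3 without treated CCNB1- library 2 or either treated CCNB1+ library, and 10 without treated CCNB1- library 1, where that of SIN3 genes was 7. For SIN3 it was 2 without each of the other treated libraries. With the block by pair of fractions these numbers were 11 and 8. SAP30 was 4.69-fold higher there, and the lower PRC1.6 genes were PCGF6, with a log2 difference of -0.84, and YAF2, with -0.65. For S phase genes, 8 of 8 fell in CCNB1- cells and 7 of 8 in CCNB1+ cells under treatment, with medians of -3.68 and -0.87. The difference of the responses passed the test for 8 of these 8, against 5.33% of all tested genes. In each the treatment difference was the less negative or more positive one in CCNB1+ cells, with a median of 2.68. The untreated levels were unequal too. The S phase genes summed to 1529 to 1633 RPM in untreated CCNB1- and 881 to 938 RPM in untreated CCNB1+ libraries. In treated libraries the sums were 126 to 131 RPM in CCNB1- and 439 to 494 RPM in CCNB1+ cells.

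The genes most like each member over the 8 libraries were found by Pearson correlation of log2 values, as a description, since the 8 points share their scaling and fall mainly into treated and untreated libraries. MYC was most like HS3ST1 (r = 0.9997), a heparan sulfate sulfotransferase, then ZNHIT2 and the lipoprotein receptor SCARB1. MLX was most like M6PR (r = 0.9992), the mannose 6-phosphate receptor, then NPM1, a nucleolar protein of the MYC-activated list, and EIF2B2. MXD4 was most like the antiproliferative gene BTG2 (r = 0.9975), then ADAM28 and YPEL5. MXD3 was most like FAM50A (r = 0.9964), then CCDC77 and the centrosomal gene CEP192. For MAX, MXD1, MXI1, MGA and MNT the leading genes were ESRRA (r = 0.9929), ZNF215 (0.9894), CCDC32 (0.9772), RSU1 (0.9557) and ASPHD1 (0.9324). Among the members themselves MYC and MLX were the closest pair (r = 0.9883), and MXD4 ran opposite to MLX (r = -0.9478) and to MYC (r = -0.9450).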

How the data were processed

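Poly(A) RNA of sorted HT29 fractions was sequenced from directional libraries. Per the labels and the methods, the authors used Trim Galore 0.5.0 for trimming and HISAT2 2.1.0 for mapping to GRCh38, then counted and normalized them to total reads per gene in SeqMonk, where they tested genes with DESeq2. They deposited log2 values, 1 column per library and none pooled (8 columns used, 0 left unused). The annotation release and strand setting were not given in the sources used here, and 99.3% of gene IDs were in GENCODE 44. Each column gave whole reads for 100% of genes with a read (within 0.05 reads, genes under 10000 reads), and genes without a read stand at 0.9 reads. Replicates differed beyond counting noise (chi-square per gene 15.6 to 30.2) and were kept apart. Counting error is covered by no interval on per-length levels.

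The log2 values as deposited by the authors were fitted with limma 3.58.1 (R 4.3.3, mean-variance trend, 1 coefficient per group, all 8 libraries) for genes whose mean reached 1 RPM. The script was tested on simulated data. Alternatives were quantile normalization, median-of-ratios scaling, no filter or 10 RPM, log2(RPM + 0.1), limma-voom on recovered reads, fits of the compared groups alone, a replicate block, leaving out each library, an adjusted p under 0.01, and an added 2-fold requirement. Scaling to nuclear-encoded reads with MALAT1 left out was added after seeing the data.

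The members and the gene lists (MYC-activated, MYC-repressed, cofactors and turnover, SIN3, PRC1.6, other family genes, MLX targets, ERK output, G2 and mitosis, S phase, and cell markers) were chosen with earlier results of these data known. Named are all members, all other family genes and MLX targets, up to 3 called list genes with the largest difference in each direction, and the genes most like a member. Of 126 genes in the 7 network lists, 122 were tested. The gene IDs of USP36 and PHB1 carried another symbol in the table and were matched by ID. Per-length levels used the union of GENCODE 44 exons.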

Additional observations from a re-analysis of the deposited data

How the results depend on the processing

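Of 891 values of single members, either refitted or held to a stricter threshold in the main fit, 824 kept their direction and side of the threshold. The stricter thresholds cannot change a direction. The calls of MYC, MLX and MXD4 for selumetinib held in both fractions in every alternative. Requiring at least 2-fold left 3 called members in CCNB1- cells (7 without it), 68 list genes in CCNB1+ cells (103), 0 members between untreated fractions (2), and 1 member and 6 list genes between treated fractions (2 and 47). An adjusted p under 0.01 left 1 member between untreated fractions, 1 member and 22 list genes between treated fractions, and 4 list genes in the difference of responses (8). Without a filter on low values, where 31381 genes were tested, these were 1 member between untreated fractions, 1 member and 30 list genes between treated fractions, and 3 list genes in the difference of responses. With a mean of at least 10 RPM, 1 list gene was called between untreated fractions (3). Quantile normalization gave 1 member between untreated fractions and 1 in the difference of responses (0), and fitting the compared groups alone gave 1 member between treated fractions. The cause of these changes was not tested beyond the number of genes or samples that each setting changes.

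The labels do not say that a replicate number marks a shared culture. Fractions with the same number deviated together (correlations of 0.35 untreated and 0.43 treated), while treatments with the same number did not (-0.02 in both fractions). A replicate block by number gave 1 member in the difference of responses, MXD3 (limma adjusted p = 0.0488). A replicate block by pair of fractions gave 18 list genes between untreated fractions, 5 members (MXD3, MXD4, MYC, MLX and MXI1) and 83 list genes between treated fractions, and 2 members (MXD3 and MXD1) and 42 list genes in the difference of responses.

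Leaving out 1 library at a time gave 5 to 7 members and 100 to 107 list genes in CCNB1- cells, 5 members and 91 to 106 list genes in CCNB1+ cells, 1 to 2 members and 1 to 3 list genes between untreated fractions, 1 to 2 members and 19 to 56 list genes between treated fractions, and 0 to 1 member and 4 to 23 list genes in the difference of responses. A lone library left in a group is assumed to vary like the other groups.

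Differences that took the other sign were all uncalled. For the CCNB1+ response they were MXD1 (0.10), MNT (0.12) and MGA (0.13) under scaling to nuclear-encoded reads with MALAT1 left out, which moved the median of all genes to 0.36 in CCNB1- and 0.42 in CCNB1+ cells, MXI1 under quantile normalization (-0.040) and median-of-ratios scaling (-0.059), and MNT without single libraries (-0.41 to 0.16). Between untreated fractions, leaving out single libraries gave -0.13 to 0.013 for MYC, -0.014 to 0.088 for MAX, -0.18 to 0.050 for MXI1, -0.14 to 0.14 for MLX and -0.033 to 0.078 for MGA, MLX also changing sign under median-of-ratios scaling (0.056). Between treated fractions MNT ran from -0.26 to 0.16. Depth limits MNT most, at 123 to 355 reads a library.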
